A study of Mus musculus with 11 samples.

Results

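The genes of Wnt signalling described here were the secreted Wnt ligands, their receptors, the inhibitors that bind them, and the factors and feedback genes that act downstream. They were chosen by gene name: every Wnt, Fzd, Sfrp, Dkk and Rspo gene with a numbered symbol, together with a fixed set of co-receptors, R-spondin receptors, ligases, destruction complex components, TCF/LEF factors and feedback genes. The rule found 62 genes among the 34570 genes listed in either table of the series. All 62 were listed for mouse embryonic stem cells (mESCs) and 61 for mouse embryonic fibroblasts (MEFs), where Dkk4 was not listed.

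Wnt ligands are lipid-modified by the acyltransferase Porcn, carried to the cell surface by Wls, and bound by Frizzled receptors together with Lrp5 or Lrp6. Binding stops the destruction complex of Axin and Apc from marking beta-catenin for degradation, so that beta-catenin enters the nucleus and acts with TCF/LEF factors on targets such as Axin2, Nkd1, Notum, Lgr5, Znrf3 and Rnf43, several of which dampen the pathway in return. In mESCs the pathway is known for helping to hold the cells in the pluripotent state, and in embryonic mesenchyme for patterning and growth.

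Poly(A)+ RNA was sequenced from 2 wild-type (WT, Atxn7l3+/+) and 3 Atxn7l3-/- mESC lines and from 3 WT and 3 Atxn7l3-/- MEF cultures, all of the mixed strain DBA/2 x C57BL/6. Atxn7l3 encodes an adaptor of the deubiquitylase module that removes ubiquitin from histone H2B, and the Atxn7l3-/- animals carried a null allele that was not limited to a tissue. Each mESC line came from its own blastocyst, was grown at the outset on feeder cells and then without them, and all 5 lines were kept in LIF, 15% foetal calf serum, 1 uM PD0325901 (a MEK inhibitor) and 3 uM CH99021 (a GSK3 inhibitor, which itself activates beta-catenin signalling). MEFs were taken at E10.5 from embryos without the head and gastrointestinal tract and were grown in 10% foetal calf serum, so that a MEF culture may hold several cell types of the embryo. The levels below are given as CPM, read counts scaled to library size by the TMM method over all 11 libraries. A gene was called changed when its adjusted p in edgeR's quasi-likelihood test was at most 0.05, its fold was at least 2 and its median over the libraries compared exceeded 10 normalized reads per kb.

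The libraries held 34515342 to 49602605 counted reads, so that 3 reads in a library corresponded to 0.0605 to 0.0869 CPM before scaling. Atxn7l3 was at 196 and 202 CPM in WT mESCs and at 0.831 to 3.33 CPM in Atxn7l3-/- mESCs. In MEFs it was at 86.4 to 117 CPM in WT and still at 55.4 to 73.3 CPM in the libraries labelled Atxn7l3-/-, a log2 difference of -0.74 with an adjusted p of 0.071. In these RNA data every MEF direction below therefore rests on the labels. At the protein level, the paper could not detect ATXN7L3 in Atxn7l3-/- MEFs by western blot, and it found H2Bub1 raised there. The pluripotency factor Pou5f1 was at 803 to 1170 CPM in mESCs and not listed in MEFs, while Col1a1 was at 2443 to 14218 CPM in MEFs. The Y-linked genes Ddx3y and Eif2s3y were below 3 CPM in Atxn7l3-/- mESCs 1 and 2 and below 0.5 CPM in WT MEF 3, and above 40 CPM in each of the other libraries.

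**Figure D1:**
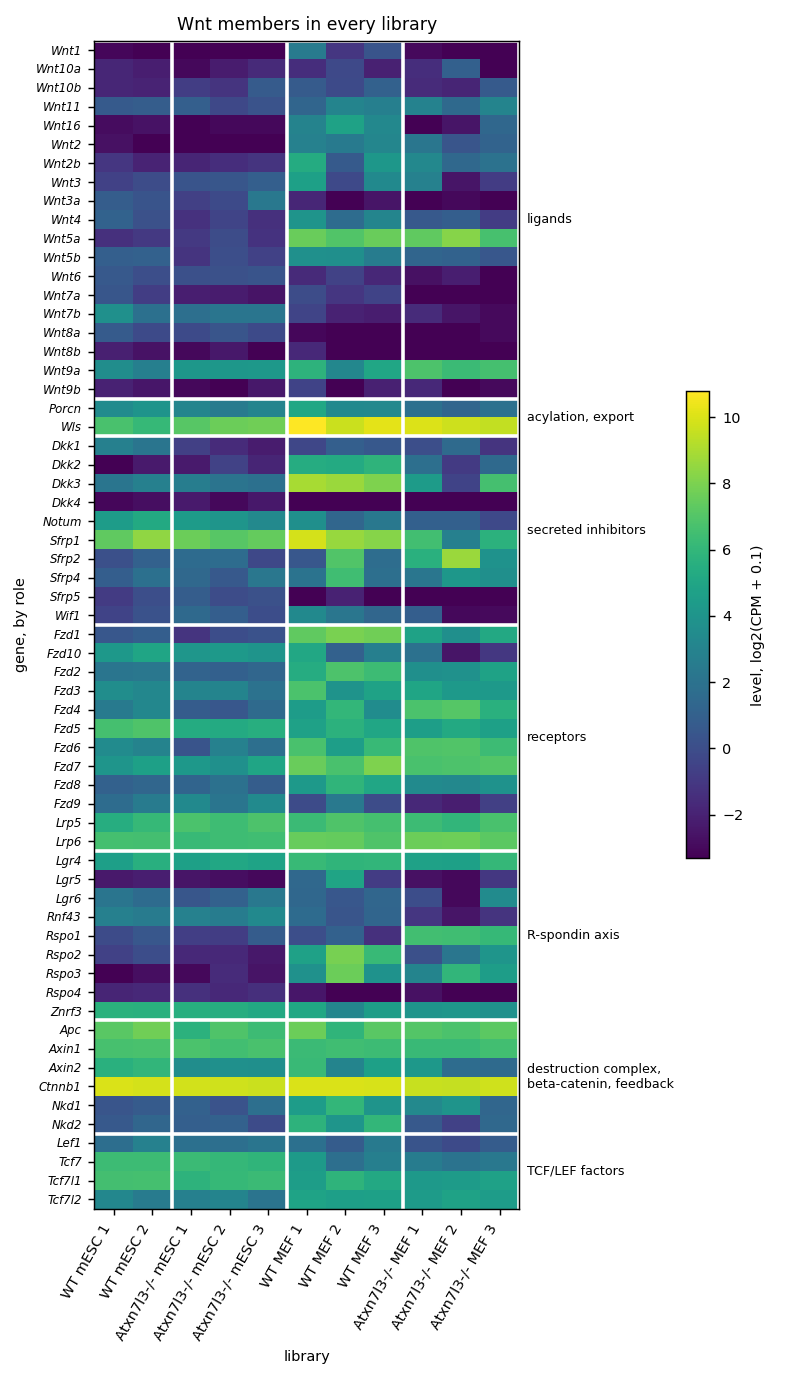
Level of each of the 62 Wnt genes (rows, by role) in each of the 11 libraries (columns), as log2(CPM + 0.1) in colour. Most rows change between mESCs and MEFs; within MEFs, the row of Rspo1 is dark in the 3 WT libraries and bright in the 3 libraries labelled Atxn7l3-/-.

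The comparison of Atxn7l3-/- with WT mESCs asked which Wnt genes change when the adaptor is lost in pluripotent cells. Of the 46 Wnt genes tested above the expression threshold, 3 fell and 0 rose, where 2.18% of all 15702 genes fell, 3.13% rose and 5.31% did either. Those 3 were Axin2, the scaffold of the destruction complex and a common reporter of beta-catenin activity, the receptor Fzd5 and the ligand Wnt7a. At an unadjusted p under 0.05, 3 Wnt genes (6.52%) had a higher and 8 (17.4%) a lower level in Atxn7l3-/- mESCs, where 15.9% of all genes were higher and 12.8% lower. Over the 52 tested at any level, 33 log2 fold changes (63.5%) were below 0, with a median of -0.23, where the figures for all 17800 tested genes were 47.7% and 0.04. The genotype groups did not overlap for 26 of the 52 (50%), near the 49.7% of all tested genes.

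Axin2 (chromosome 11: 108920349 to 108950783, plus strand, mm10) was at 49.2 and 63.3 CPM in WT mESCs and at 11.8, 13.6 and 13.0 CPM in Atxn7l3-/- mESCs. Both WT lines were far above the 3 Atxn7l3-/- lines, which lay close together. The mean fell 4.39-fold, from 56.3 ± 9.94 (SD, n = 2) to 12.8 ± 0.908 CPM (SD, n = 3), with a log2 fold change of -2.08 ± 0.22 (SE) and an adjusted p of 0.0211 in edgeR.

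Fzd5 (chromosome 1: 64730558 to 64737751, minus strand) encodes the Frizzled receptor with the highest level per length in WT mESCs. It was at 96.6 and 120 CPM in WT and at 40.9, 39.5 and 46.7 CPM in Atxn7l3-/- mESCs. The groups did not overlap, and its log2 fold change was -1.30 ± 0.20 (SE; adjusted p of 0.0224 in edgeR). An antisense transcript annotated on the other strand covers 17.8% of its exon bases, and whether reads were counted by strand is not given in the sources used here. The same holds for Notum, with 29.4% of its exon bases under 1 transcript of the other strand, Sfrp2 (16.1%), Ctnnb1 (14.6%), Lef1 (13.7%) and Rspo3 (13.1%).

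Wnt7a (chromosome 6: 91363981 to 91411363, minus strand) was counted with 66 and 24 reads in WT mESCs and with 5, 5 and 3 reads in Atxn7l3-/- mESCs, or 1.26 and 0.493 against 0.128, 0.107 and 0.0673 CPM. Every Atxn7l3-/- line was below both WT lines, which themselves differed. Its log2 fold change was -3.05 ± 0.65 (SE; adjusted p of 0.0381). It passed the expression threshold through a deposited transcript length of 297 bases, a median over 3 annotated transcripts of which the longest has 3172. Divided by the longest, its median would be 1.73 instead of 18.5 reads per kb, below the threshold.

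Dkk1, a secreted inhibitor that blocks Lrp5 and Lrp6 and itself a target of beta-catenin, was named after its values were seen, because it passed the adjusted p but not the expression threshold. Its level was 6.95 and 4.31 CPM in WT and 0.538, 0.235 and 0.112 CPM in Atxn7l3-/- mESCs. The highest Atxn7l3-/- line was far below the lower WT line, and the log2 fold change was -4.21 ± 0.69 (SE; adjusted p of 0.0246). With Dkk1, 4 of 52 Wnt genes were lower and 0 higher by the adjusted p alone, where 3.88% of all tested genes were lower, 3.08% higher and 6.96% either.

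**Figure D2:**
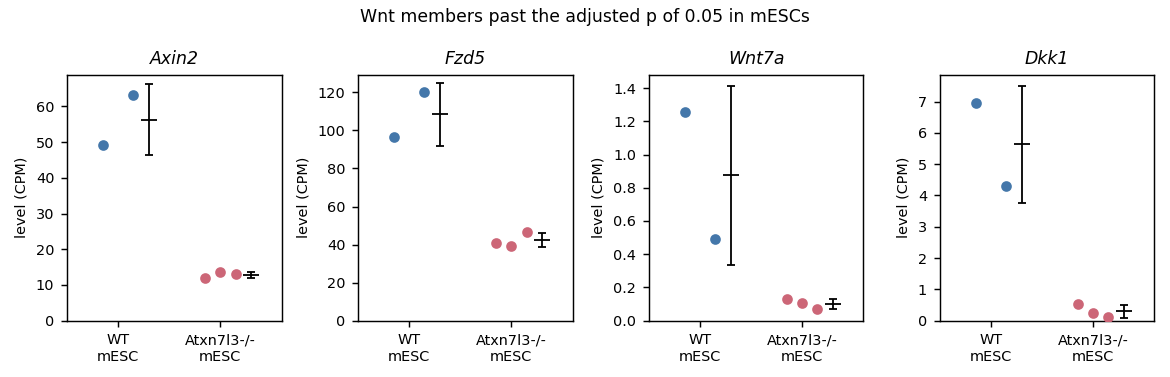
Level in CPM (vertical axes, from 0) of Axin2, Fzd5, Wnt7a and Dkk1 in 2 WT (blue) and 3 Atxn7l3-/- (red) mESC lines; the black marks show mean and SD. In each panel both WT points lie above all 3 Atxn7l3-/- points.

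The 250 bases before the RefSeq start (build GRCm38.p6) of Axin2 and Dkk1, known beta-catenin targets that were lower in Atxn7l3-/- mESCs, are shown to set their upstream letters beside these values. Capitals mark the TCF/LEF motifs CTTTGAT and CTTTGTT, searched on both strands.
Axin2 (chr11:108920099-108920348, plus strand): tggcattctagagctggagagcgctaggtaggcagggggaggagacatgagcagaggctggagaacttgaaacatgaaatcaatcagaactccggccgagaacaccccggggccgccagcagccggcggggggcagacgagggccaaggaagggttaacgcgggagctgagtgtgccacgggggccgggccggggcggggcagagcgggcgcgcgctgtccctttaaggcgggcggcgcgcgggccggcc
Dkk1 (chr19:30549497-30549746, minus strand): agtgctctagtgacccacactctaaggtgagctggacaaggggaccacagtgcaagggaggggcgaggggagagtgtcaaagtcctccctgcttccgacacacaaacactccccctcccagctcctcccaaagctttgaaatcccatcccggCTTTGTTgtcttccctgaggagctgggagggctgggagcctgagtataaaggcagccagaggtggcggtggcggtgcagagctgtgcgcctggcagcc
The Axin2 window, which ends where the deposited gene begins, holds neither motif. In the Dkk1 window CTTTGTT begins 98 bases before the start. Of the 40 Wnt genes found in the promoter table, 5 (12.5%) had at least 1 motif in such a window, namely Dkk1, Fzd7, Tcf7l2, Wnt11 and Wnt5b, against 9.21% of all 27025 genes there. A match of these letters is a description and does not show binding.

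Among the other genes that were to be reported, Wnt3, a ligand of the early embryo, was at 0.552 and 0.883 CPM in WT and at 1.18, 1.28 and 1.86 CPM in Atxn7l3-/- mESCs. All 3 values of the mutant lines were above both WT values, yet the log2 fold change of 1.06 ± 0.52 (SE) had an adjusted p of 0.217. Ctnnb1, which encodes beta-catenin, was at 1016 and 925 CPM in WT and at 797 to 893 CPM in Atxn7l3-/- mESCs (log2 fold change -0.13, adjusted p of 0.68). Notum, a secreted enzyme that removes the lipid from Wnt ligands, was at 22.0 and 37.8 CPM in WT and at 20.9, 16.4 and 9.72 CPM in Atxn7l3-/- mESCs (log2 fold change -0.88, adjusted p of 0.163). Porcn was at 11.2 and 15.4 against 8.59, 5.68 and 7.99 CPM (adjusted p of 0.173), Nkd1 at 1.24 and 1.58 against 1.97, 1.13 and 3.46 CPM (adjusted p of 0.465), and Lef1 at 3.31 and 7.31 against 3.59, 3.48 and 4.31 CPM (adjusted p of 0.559). The Lef1 and Nkd1 groups overlapped, and Lgr5 was too low to test, with at most 0.123 CPM in any mESC library.

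By role, the mESC calls were 1 of 10 ligands above the threshold, 1 of 12 receptors and 1 of 6 genes of the destruction complex, beta-catenin and feedback group. All 3 were falls, where 2.18% of all genes fell, and groups of this size are too small to compare roles. No call was made among the 2 genes for ligand acylation and export or the 7 secreted inhibitors. The same was true of the 5 genes of the R-spondin axis and the 4 TCF/LEF factors that passed the threshold. The median log2 fold change was -0.54 for receptors, with 8 of 12 below 0, and -0.10 for the 13 ligands tested. All 4 TCF/LEF factors had log2 fold changes between -0.45 and -0.16. The Wnt carrier Wls was at 105 and 69.2 CPM in WT and at 141, 193 and 209 CPM in the Atxn7l3-/- lines. Its log2 fold change of 1.10 missed the threshold with an adjusted p of 0.0521.

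Beyond these genes, a list of 60 further Wnt pathway genes held 57 that were tested in mESCs, of which 2 rose and 4 fell, where the shares of all genes were the 3.13% and 2.18% given above. The planar polarity cadherin Celsr1 was at 47.5 and 65.9 CPM in WT and at 107, 115 and 145 CPM in the Atxn7l3-/- lines, and rose by 1.17 on the log2 scale. The co-receptor Ptk7 rose by 1.08 on the log2 scale. Myc, a target of beta-catenin and of many other inputs, was at 7.67 and 7.39 CPM in WT and at 0.154, 0.556 and 0.180 CPM in Atxn7l3-/- mESCs, and fell by 4.61 on the log2 scale. The posterior homeobox gene Cdx2 fell by 2.99, the co-repressor Tle4 by 2.58 and Ccnd1, which drives entry into S phase, by 1.39 on the log2 scale. Of 12 listed beta-catenin targets, 3 fell by the full rule and 5 by adjusted p alone, adding T and Sp5, and 0 rose. Of all genes 2.18% and 3.88% fell by these rules. Among the targets named at the opening, Axin2 fell, Nkd1, Notum, Znrf3 and Rnf43 were not called, and Lgr5 was too low to test. Per kb, Znrf3 was at a mean of 10.1 CPM in WT and 8.60 CPM in Atxn7l3-/- mESCs, and Rnf43 at 2.43 and 2.97 CPM.

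Marker levels moved with this comparison. The summed level of 8 fibroblast and mesenchyme markers was 25.8 to 99.3 CPM in WT and 271 to 392 CPM in Atxn7l3-/- mESCs, with Col1a1 called higher, and that of 5 primitive streak markers was 5.88 to 8.28 CPM in WT and 1.82 to 2.91 CPM in Atxn7l3-/- mESCs. Their part in the Wnt differences was not tested. Atxn7l3-/- lines 1 and 2 had few Y-linked reads, as given above, while both WT lines and the remaining Atxn7l3-/- line had many. The part of this in the mESC differences, among them that of the X-linked Porcn, was not tested either. In bulk RNA, fewer cells that express a gene and less RNA per cell cannot be told apart. The calls rested on few lines: without WT line 1, WT line 2 or Atxn7l3-/- line 1 the number of Wnt genes that fell was 0 in each case, with adjusted p of 0.0815 to 0.138 for Axin2, 0.0835 to 0.172 for Fzd5 and 0.104 to 0.294 for Wnt7a and log2 fold changes of the same sign. In these fits 0, 0 and 0.0192% of all genes fell, so few genes of any kind were called. Without Atxn7l3-/- line 2 Wnt7a was lost (adjusted p of 0.0544). In 1 fit of all 11 libraries only Fzd5 of the 3 was called (Axin2 adjusted p of 0.187, Wnt7a 0.0562).

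The comparison of MEFs labelled Atxn7l3-/- with WT MEFs asked the same of cells of the embryo body. Of 50 Wnt genes above the expression threshold, 1 rose and 8 fell, where 4.74% of all 14631 genes rose, 3.55% fell and 8.29% did either. Rspo1, which encodes a secreted amplifier of Wnt signals, rose. The ligands Wnt5b and Wnt7a, the acyltransferase gene Porcn, the inhibitor gene Dkk2, the receptors Fzd1 and Fzd2, the receptor-removing ligase gene Rnf43 and the feedback inhibitor gene Nkd2 fell. Over the 53 Wnt genes tested at any level, 42 log2 fold changes (79.2%) were below 0 with a median of -1.45, where the figures for all 15958 tested genes were 52.5% and -0.06. The groups did not overlap for 24 of the 53 (45.3%), where 39.7% of all tested genes did not.

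Same-numbered MEF libraries had correlations of 0.473, 0.161 and 0.24 between their deviations from the group means, and differently numbered ones -0.262 to 0.0516. Deviations within a group sum to 0, which pulls the latter below 0. The labels do not say what the numbers stand for, so whether they mark pairs is not known. The fit with the replicate number as a block is given beside those counts as an alternative. With the block 2 Wnt genes rose and 15 fell, where 5.38% of all genes rose and 7.33% fell. All 9 genes named above were called in it too. The genes added were Fzd4, which rose, and Axin2, Fzd10, Nkd1, Rspo2, Sfrp1, Wif1 and Wnt3, which fell.

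Rspo1 (chromosome 4: 124986430 to 125009099, plus strand) was at 0.936, 2.00 and 0.293 CPM in WT MEFs and at 92.1, 88.9 and 70.9 CPM in MEFs labelled Atxn7l3-/-. Every labelled Atxn7l3-/- culture was far above every WT culture. The mean rose 78.0-fold, from 1.08 ± 0.861 to 84.0 ± 11.4 CPM (SD, n = 3 each), with a log2 fold change of 6.28 ± 0.70 (SE) and an adjusted p of 0.00936 in edgeR, and it was called without any one of the 6 MEF libraries. Per kb of transcript it made up 66.9% of the summed level of the R-spondin axis genes in MEFs labelled Atxn7l3-/-. Mesothelial markers moved in the same libraries: 6 of 7 listed genes rose, their summed level was 19.4 to 49.2 CPM in WT and 6112 to 9006 CPM in the cultures labelled Atxn7l3-/-, and the defining marker Msln went from 1.88 to 6.56 up to 478 to 1190 CPM. Of 5 primitive endoderm markers 2 rose and 1 was lower by the adjusted p alone. Their summed level was 202 to 359 CPM in WT and 501 to 1081 CPM in the others. Of 6 epithelial markers 3 were tested and 1 rose, with a sum of 1.07 to 3.53 and 6.89 to 35.2 CPM. Cdh1 of that list went the other way, at 0.610 to 1.53 CPM in WT and 0.0898 to 0.868 CPM in the others (adjusted p of 0.229). The part of these markers in the Rspo1 difference was not tested.

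Dkk2, an inhibitor of the Lrp5 and Lrp6 co-receptors (chromosome 3: 132085292 to 132180304, plus strand), was at 41.7, 38.8 and 58.5 CPM in WT MEFs and at 3.49, 0.434 and 2.75 CPM in MEFs labelled Atxn7l3-/-. The groups did not overlap, and its log2 fold change was -4.39 ± 0.74 (SE; adjusted p of 0.0221). Nkd2, an inhibitor that binds Dishevelled (chromosome 13: 73818534 to 73847631, minus strand), was at 55.9, 16.2 and 64.6 CPM in WT and at 1.43, 0.562 and 2.63 CPM in the labelled Atxn7l3-/- cultures. WT culture 2 was the lowest of its group yet above all 3 others, and the log2 fold change was -4.90 ± 0.79 (SE; adjusted p of 0.0214).

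Fzd1 (chromosome 5: 4753839 to 4758035, minus strand) was at 163, 250 and 214 CPM in WT MEFs and at 27.9, 12.8 and 35.8 CPM in MEFs labelled Atxn7l3-/-, a log2 fold change of -3.04 ± 0.42 (SE; adjusted p of 0.0147). Fzd2 (chromosome 11: 102604396 to 102608058, plus strand) was at 41.8, 114 and 81.6 CPM in WT and at 12.9, 13.9 and 27.8 CPM in the others, a log2 fold change of -2.12 ± 0.47 (SE; adjusted p of 0.0428). These receptors were lower in each labelled Atxn7l3-/- culture than in each WT culture. Fzd4, Fzd6 and Lrp6 had log2 fold changes above 0, of 1.55, 0.66 and 0.21, with adjusted p of 0.158, 0.396 and 0.571.

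Porcn (chromosome X: 8193848 to 8206525, minus strand) was at 33.2, 10.4 and 9.81 CPM in WT MEFs and at 3.57, 2.30 and 3.68 CPM in MEFs labelled Atxn7l3-/-. WT culture 1 was high within its group, the groups did not overlap, and the log2 fold change was -2.51 ± 0.59 (SE; adjusted p of 0.0474). Porcn lies on the X chromosome, and the libraries differed in Y-linked reads as given above; the part of this in its difference was not tested. Wls, the next step in ligand export, was at 1762, 798 and 1161 CPM in WT and at 1052, 838 and 729 CPM in the others (adjusted p of 0.333).

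Wnt5b, a ligand mostly linked to beta-catenin-independent signalling (chromosome 6: 119432531 to 119544347, minus strand), was at 13.6, 13.1 and 6.01 CPM in WT MEFs and at 2.35, 2.09 and 1.35 CPM in MEFs labelled Atxn7l3-/-, a log2 fold change of -2.52 ± 0.48 (SE; adjusted p of 0.0298). Wnt7a was counted with 42, 12 and 25 reads in WT and 0 in all 3 others, so it was at least 7.49-fold lower when 3 reads per library are taken as the limit (adjusted p of 0.0232). It passed the expression threshold through the short deposited length given above, with 23.6 reads per kb against 2.21 at the longest transcript. Rnf43 (chromosome 11: 87662722 to 87735539, plus strand) was at 2.91, 1.22 and 2.32 CPM in WT and at 0.370, 0.0766 and 0.329 CPM in the labelled Atxn7l3-/- cultures, a log2 fold change of -3.07 ± 0.71 (SE; adjusted p of 0.0451). At the longest transcript its 11.3 reads per kb would be 6.90, also below the threshold. None of these 3 overlapped between the groups.

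**Figure D3:**
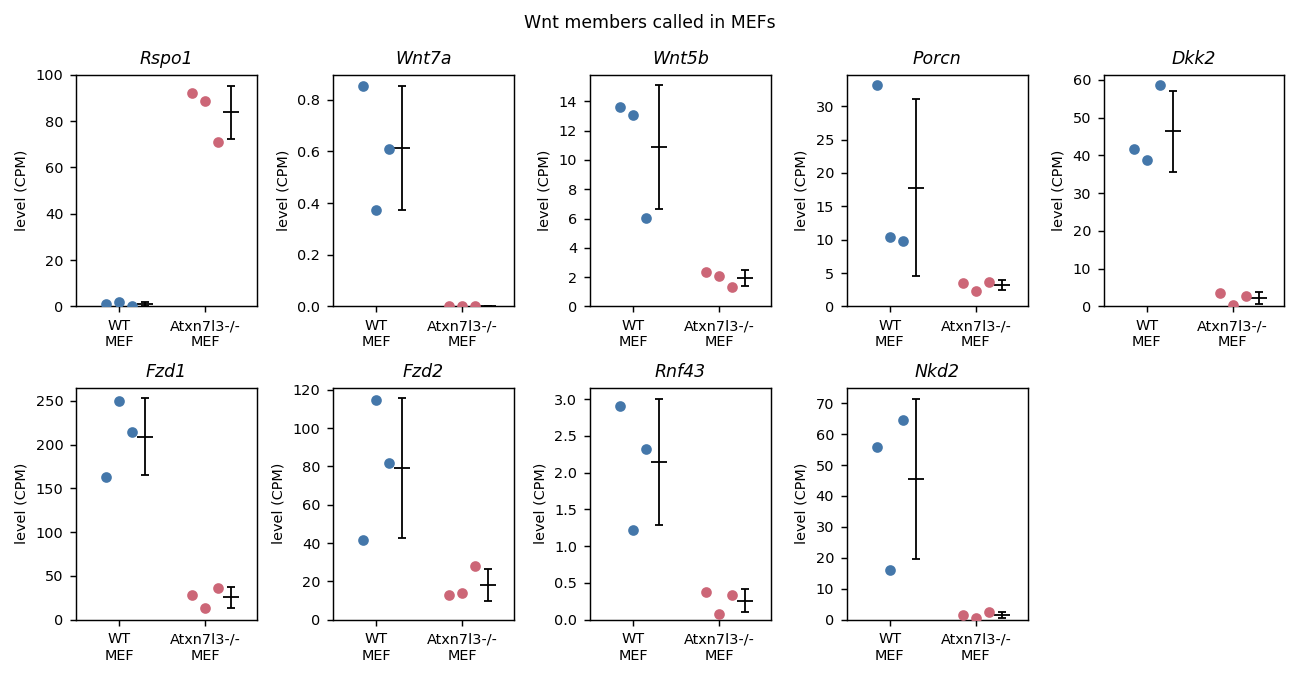
Level in CPM (vertical axes, from 0) of the 9 Wnt genes called in MEFs, in 3 WT cultures (blue) and 3 cultures labelled Atxn7l3-/- (red); the black marks show mean and SD. Rspo1 is the panel in which the red points are above the blue ones, and in the other 8 panels they are below.

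The windows of 250 bases before the RefSeq start of Rspo1, which rose, and of Nkd2, which had the largest fall among the called genes with reads in all 6 cultures, are shown for comparison with the mESC pair. Both end where the deposited gene begins.
Rspo1 (chr4:124986180-124986429, plus strand): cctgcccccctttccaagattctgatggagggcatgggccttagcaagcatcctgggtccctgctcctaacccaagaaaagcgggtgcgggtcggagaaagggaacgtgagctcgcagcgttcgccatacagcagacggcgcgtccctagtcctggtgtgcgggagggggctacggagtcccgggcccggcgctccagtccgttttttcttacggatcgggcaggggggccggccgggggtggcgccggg
Nkd2 (chr13:73847632-73847881, minus strand): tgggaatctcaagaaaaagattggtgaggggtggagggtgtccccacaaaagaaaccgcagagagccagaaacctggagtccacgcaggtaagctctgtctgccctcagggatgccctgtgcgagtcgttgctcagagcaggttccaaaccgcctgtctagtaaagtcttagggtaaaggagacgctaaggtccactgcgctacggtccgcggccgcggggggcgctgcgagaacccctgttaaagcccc
Neither holds CTTTGAT or CTTTGTT on either strand.

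Wnt1, a ligand of the dorsal neural tube and neural crest precursors, was named after its values were seen. It had 277, 12 and 47 reads in WT MEFs and 1, 0 and 0 in MEFs labelled Atxn7l3-/-, a 304-fold difference with a 95% counting interval of 54.2 to 12034, and passed the adjusted p (0.0352) but not the expression threshold. With it, 9 of 53 Wnt genes were lower and 1 higher by the adjusted p alone, where 4.39% of all tested genes were lower, 5.01% higher and 9.41% either.

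Several beta-catenin targets, and the ligand Wnt3, had low values in MEFs labelled Atxn7l3-/- without a call in the fit that has no block. Axin2 was at 74.1, 8.21 and 25.9 CPM in WT MEFs and at 18.1, 3.09 and 2.84 CPM in the others. The groups overlapped because culture 1 was highest in both, and the log2 fold change of -2.22 had an adjusted p of 0.18 without and 0.0314 with the replicate block, over a range of 0.0314 to 0.452 in 14 alternatives. Wnt3 was at 25.4, 0.781 and 10.1 CPM in WT and at 7.11, 0.0766 and 0.479 CPM in the others, with an adjusted p of 0.362 without and 0.037 with the block, the lowest of 13 alternatives that reached 0.683. Nkd1 was at 22.1, 63.6 and 15.5 against 9.83, 15.4 and 2.42 CPM, with an adjusted p of 0.147 and, with the block, 0.0293, over a range up to 0.363.

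Notum was at 12.8, 2.44 and 4.86 CPM in WT MEFs and at 1.93, 1.92 and 0.778 CPM in the others (adjusted p of 0.1). Lgr5, an R-spondin receptor, was at 2.60, 30.3 and 0.464 CPM in WT and at 0.0528, 0.0255 and 0.389 CPM in the others (adjusted p of 0.0783), the WT values spanning a 65.3-fold range. Lef1 was at 3.56, 1.59 and 5.52 against 1.19, 0.792 and 1.65 CPM (adjusted p of 0.125), and Ctnnb1 at 974 to 1023 against 749 to 879 CPM (adjusted p of 0.331). The Notum, Lgr5 and Ctnnb1 groups did not overlap, whereas those of Lef1 did.

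By role, the MEF calls were 2 of 11 ligands, 1 of 2 genes for acylation and export, 1 of 8 secreted inhibitors, 2 of 12 receptors, 2 of 7 genes of the R-spondin axis in opposite directions, 1 of 6 genes of the destruction complex, beta-catenin and feedback group, and 0 of 4 TCF/LEF factors. Of all genes 8.29% were called in either direction, and groups of this size are too small to compare roles. Of the 6 genes in that destruction complex group all 6 had log2 fold changes below 0, from -4.90 for Nkd2 to -0.02 for Axin1. The median over secreted inhibitors was -2.69 and over ligands -1.95. Sfrp1 was at 297 to 925 CPM in WT and at 7.10 to 89.9 CPM in the others, a log2 fold change of -3.45 with an adjusted p of 0.0623 without and 0.0365 with the block. Sfrp2 went the other way, with 1.34, 126 and 3.25 CPM in WT and 48.8, 413 and 14.3 CPM in the others (adjusted p of 0.498).

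The list of further pathway genes held 55 tested in MEFs, of which 1 rose and 4 fell, where 4.74% of all genes rose and 3.55% fell. Amer1, which recruits Apc to the membrane, rose by 1.71 on the log2 scale, from 21.8 to 29.5 CPM in WT to 55.5 to 109 CPM. Sost, an inhibitor of Lrp5 and Lrp6, was at 2.14, 1.81 and 1.46 CPM in WT and at 0.0264, 0.0255 and 0 CPM in the others. The Apc homologue Apc2 fell by 3.34, the secreted Frizzled-related gene Frzb by 2.65 and Trabd2b, a protease that cleaves Wnt ligands, by 2.61 on the log2 scale. With the block 3 of these genes rose and 9 fell, where 5.38% of all genes rose and 7.33% fell. Frzb was not called there, Gpc3 and Prickle2 were added among those that rose, and Ccnd1, Draxin, Gpc4, Msx1, Msx2 and Tnfrsf19 among those that fell.

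The falls in MEFs depended on which libraries were included. Rspo1 was called in each fit, while the number of Wnt genes that fell was 2 without WT culture 1, 4 without WT culture 2, 0 without WT culture 3, 1 without labelled Atxn7l3-/- culture 1, 2 without culture 2 and 8 without culture 3. The share of all genes that fell was 1.1%, 1.73%, 0.463%, 0.597%, 0.564% and 6.08% in the same fits. After a correction for GC content 5 Wnt genes fell, where 2.46% of all genes did. Porcn (adjusted p of 0.105), Rnf43 (0.0672) and Wnt5b (0.0932) were no longer called.

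**Figure D4:**
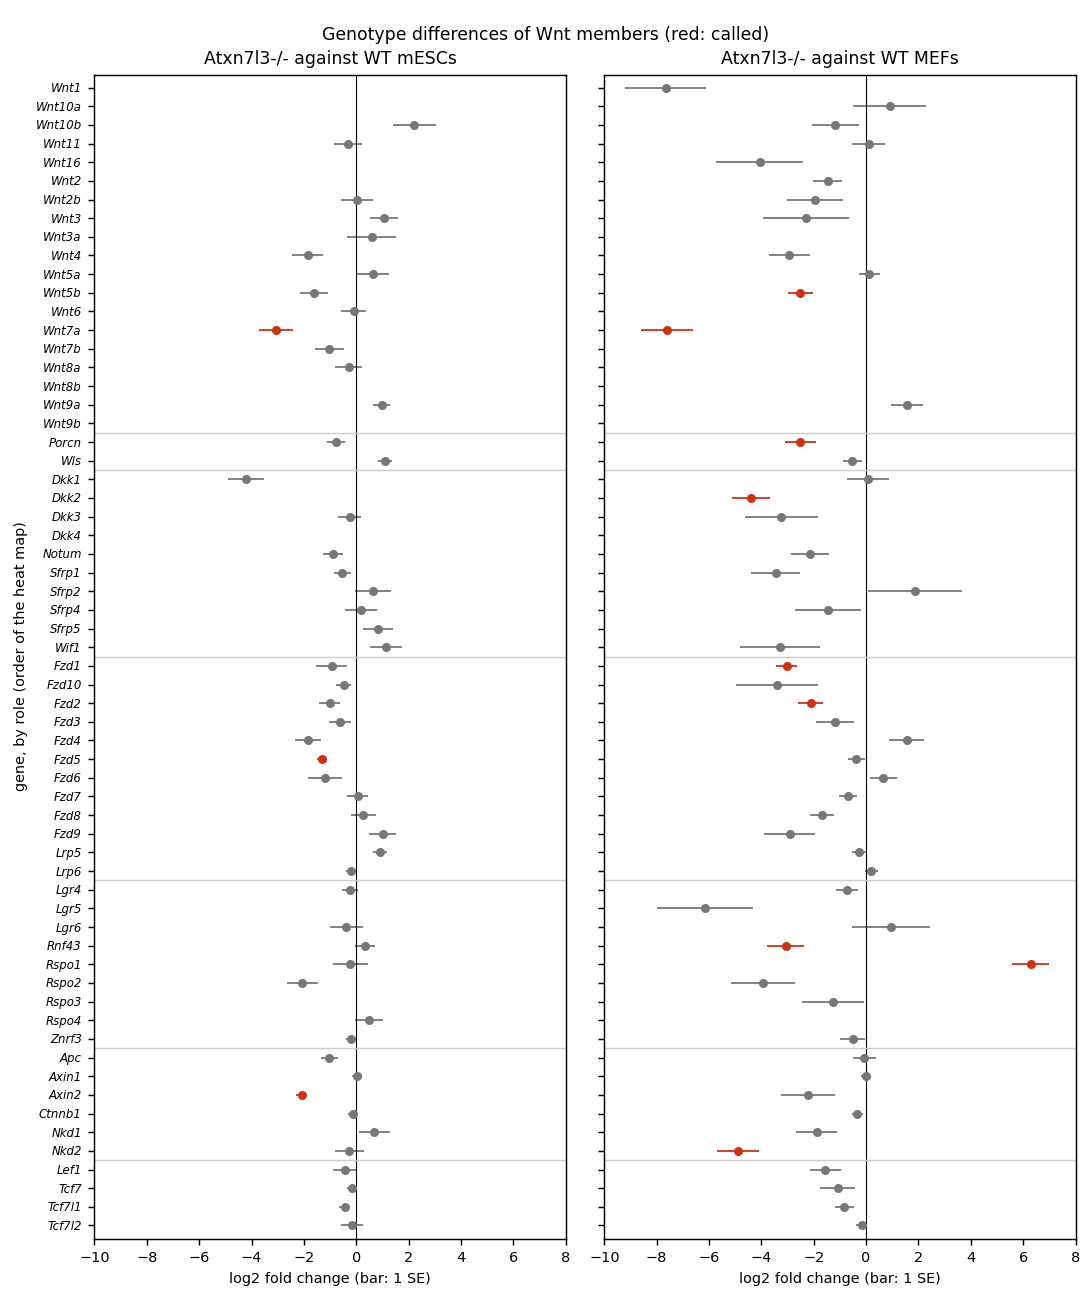
Log2 fold change of Atxn7l3-/- against WT (horizontal axes, bar: 1 SE) for each tested Wnt gene in mESCs (left) and MEFs (right), ordered by role as in the heat map; red marks called genes. On the left 33 of 52 points lie below 0 and on the right 42 of 53, and Rspo1 is the red point furthest to the right.

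The MEF cultures of each genotype differed among themselves in Wnt genes. Of 51 with a mean of at least 1 CPM, 8 (15.7%) had at least a 10-fold range between the 3 WT cultures, where 4.66% of all genes at that level did. In the 3 cultures labelled Atxn7l3-/- it was 7 of 44 Wnt genes (15.9%), where 4.1% of all genes at that level had such a range. Among the WT cultures, culture 1 was the highest and culture 2 the lowest for Fzd10, Wnt1, Wnt2b and Wnt3. For Lgr5, Rspo3, Sfrp2 and Sfrp4 culture 2 was the highest: Sfrp2 was at 126 CPM there and at 1.34 and 3.25 CPM in the others, and Rspo3 at 193 CPM against 13.7 and 14.5 CPM. In the 2 WT mESC lines 0 of 43 Wnt genes had such a range, against 0.251% of all genes. In the 3 Atxn7l3-/- mESC lines 0 of 40 did, against 1.77% of all genes. The WT lines do not include the WT mESC dataset that the paper excluded because it grouped apart. The range among WT lines may therefore be understated.

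A test of the difference between the genotype effects in MEFs and mESCs called 6 of 55 Wnt genes, 3 higher and 3 lower in MEFs, where 6.1% of all genes were called higher, 5.28% lower and 11.4% either. Rspo1 had the largest positive difference, 6.59 on the log2 scale (adjusted p of 0.00482), with mESC values of 0.818 and 1.31 CPM in WT and 0.513, 0.492 and 1.59 CPM in Atxn7l3-/-. Dkk1 differed by 4.33 (adjusted p of 0.0437): it was lower in Atxn7l3-/- mESCs and overlapped in MEFs, at 0.692, 1.81 and 1.39 CPM in WT and 0.951, 2.81 and 0.329 CPM in the others. Fzd4 differed by 3.49 (adjusted p of 0.0348), with 5.25 and 9.12 CPM in WT and 1.62, 1.30 and 2.78 CPM in Atxn7l3-/- mESCs, but 22.4, 64.6 and 11.5 CPM in WT and 109, 134 and 49.4 CPM in labelled Atxn7l3-/- MEFs.

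Nkd2, Rnf43 and Dkk2 differed by -4.57, -3.34 and -6.85 on the log2 scale, with adjusted p of 0.0216, 0.0355 and 0.0207. Nkd2 and Rnf43 overlapped between the mESC genotypes, at 0.831 to 2.44 CPM and at 5.79 to 10.2 CPM. Dkk2 was close to the limit of counting in mESCs, at 0 and 0.103 CPM in WT and 0.103, 0.577 and 0.180 CPM in Atxn7l3-/-, so its difference rests on the MEF values. With the replicate block 2 Wnt genes were called higher and 6 lower, where 3.11% and 3.86% of all genes were (6.97% either), and Dkk1 was not called (adjusted p of 0.0747). Without either WT mESC line only Rspo1 was called. The number called higher was also 1 without any Atxn7l3-/- mESC line, WT MEF culture 1 or labelled Atxn7l3-/- MEF culture 1 or 2. In those fits 2.4% to 7.4% of all genes were called higher. Without labelled Atxn7l3-/- MEF culture 3, 7 Wnt genes were called lower, where 8.5% of all genes were. For Axin2 the difference of -0.04 in this fit of all 11 libraries had an adjusted p of 1.00. Its log2 fold changes in the separate fits of each cell type were -2.08 in mESCs and -2.22 in MEFs.

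The comparison of WT MEFs with WT mESCs asked which Wnt genes differ in level between the cell types. Of 55 Wnt genes above the threshold, 25 were higher and 10 lower in WT MEFs than in WT mESCs, where 24.7% of all 17637 genes were higher, 25% lower and 49.7% either. Without WT MEF culture 3 the counts were 24 and 6, where 23.2% of all genes were higher and 22.9% lower. The cell type cannot be told apart from the medium or the inhibitors, and the labels used here give no day or batch of the experiment. Higher in MEFs were 9 of 15 ligands, 7 of 12 receptors, 3 of 9 secreted inhibitors and 2 of 7 R-spondin axis genes. Wls, Nkd1, Nkd2 and Tcf7l2 were higher too.

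Among genes above the expression threshold, the 6 largest differences toward MEFs were those of Rspo3, Dkk2, Wnt5a, Wnt16, Wnt2 and Rspo2. Wnt5a, the main ligand of beta-catenin-independent signalling in mesenchyme, was at 0.285 and 0.411 CPM in WT mESCs and at 191, 123 and 188 CPM in WT MEFs (log2 difference 8.90, adjusted p of 8.90e-06). Rspo3 had 2 reads in both mESC lines together and 7448 in the 3 MEF cultures, a ratio of 3087 with a 95% counting interval of 854 to 25491, and Wnt2 had 3 and 886 reads, a ratio of 245 with an interval of 83.5 to 1189. Dkk2, at 0 and 0.103 CPM in mESCs, was at 38.8 to 58.5 CPM in MEFs. Wnt16 went from 0.0381 and 0.0616 CPM to 7.73, 27.5 and 9.40 CPM, and Rspo2 from 0.552 and 0.924 CPM to 26.8, 242 and 71.3 CPM. No value of these 6 genes overlapped between the WT cell types. Of all tested genes 73.1% did not overlap, and of the Wnt genes 74.6%. Wnt1, below the threshold, had 1 read in mESCs and 336 in MEFs, a ratio of 278 with an interval of 49.6 to 11032.

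By the same rule, the 6 largest differences toward mESCs were those of Wnt8a, Wnt7b, Wnt3a, Sfrp5, Tcf7 and Notum. Wnt8a, a ligand of the primitive streak, had 120 reads in both mESC lines together and 1 read in the 3 MEF cultures, 145-fold fewer with a counting interval of 25.5 to 5766. Wnt7b was at 13.6 and 3.55 CPM in mESCs and at 0.651, 0.156 and 0.122 CPM in MEFs, and Wnt3a, the prototype ligand of beta-catenin signalling, at 1.71 and 1.19 CPM against 0.183, 0 and 0.0732 CPM. Sfrp5 was at 0.457 and 0.945 CPM against 0, 0.156 and 0 CPM. Tcf7, a TCF/LEF factor, was at 80.7 and 80.8 CPM in mESCs and at 20.3, 3.44 and 6.64 CPM in MEFs (log2 difference -2.99, adjusted p of 0.0013). Notum was at 22.0 and 37.8 against 12.8, 2.44 and 4.86 CPM.

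Levels of different genes are comparable only per length. Divided by the deposited median transcript length, Wnt7a (21.9%), Wnt9a (21.1%) and Wnt7b (18.8%) made up most of the summed ligand level of WT mESCs, and Wnt9a alone made up 46.4% in Atxn7l3-/- mESCs. Wnt5a made up 72.3% in WT MEFs and 78.6% in MEFs labelled Atxn7l3-/-. These shares depended on the length used, an alternative added after seeing the data. With the longest annotated transcript Wnt7a was 2.87% of the ligand level in WT mESCs, where Wnt9a was first with 29.4%, and Wnt5a was 38.5% in WT MEFs and 41.9% in the labelled Atxn7l3-/- cultures, where Wnt9a was 46.4%. Wnt9a itself was at 12.1 and 6.70 CPM in WT and 17.4, 17.8 and 18.1 CPM in Atxn7l3-/- mESCs (log2 fold change 0.96, adjusted p of 0.109), and at 55.5, 9.12 and 32.7 CPM in WT and 114, 78.5 and 99.9 CPM in labelled Atxn7l3-/- MEFs (log2 fold change 1.56, adjusted p of 0.128).

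**Figure D5:**
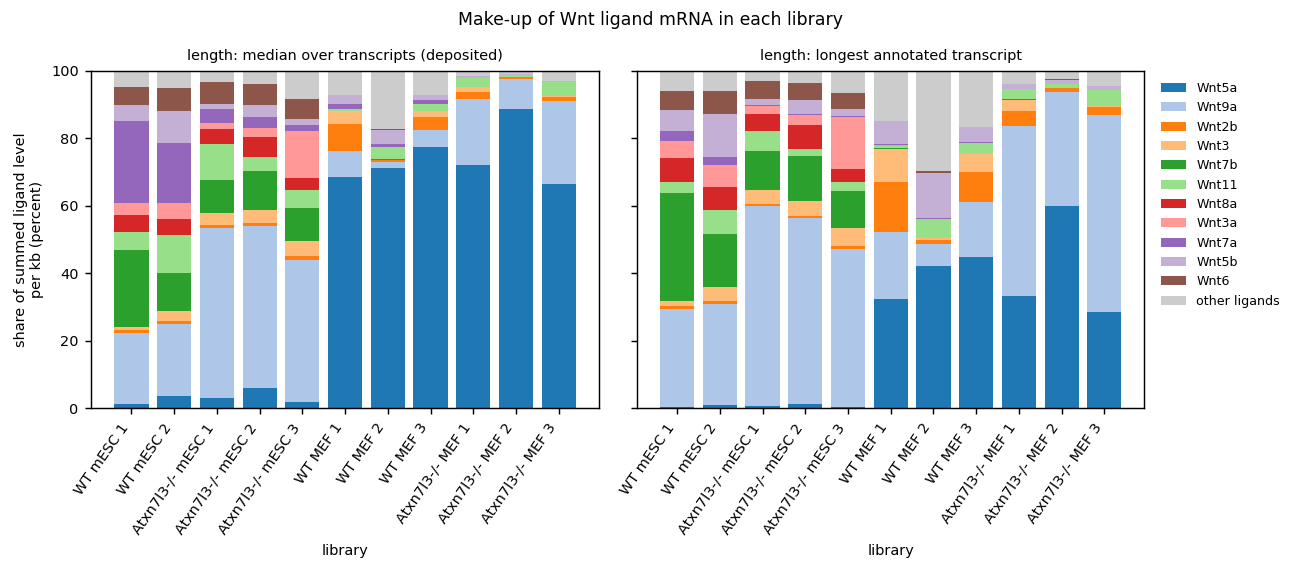
Share of each Wnt ligand in the summed ligand level per kb (vertical axis, percent) in each of the 11 libraries, with levels divided by the deposited median transcript length (left) or by the longest annotated transcript (right). The MEF bars are led by Wnt5a on the left and by Wnt5a or Wnt9a on the right; the Wnt7a band of the WT mESC bars is narrower on the right.

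In the other roles the leading gene also depended on the length. With the deposited length Lrp6 led the receptors in each group, with 47.4% of their summed level in WT mESCs and 30.7% in WT MEFs. With the longest transcript Lrp6 was at 19.5% and 9.17%, behind Fzd5 (29.7%) in WT mESCs and Fzd1 (27.3%) in WT MEFs. Among TCF/LEF factors Tcf7l1, best known as a repressor of Wnt targets, held 71.6% to 76.9% in the 4 groups with the deposited length. With the longest transcript it held 42.1% to 51.7% and came after Tcf7 in both mESC groups, where Tcf7 had 48.4% in WT and 52.7% in Atxn7l3-/- lines. Sfrp1 led the secreted inhibitors of mESCs with either length, at 68.6% in WT and 68.1% in Atxn7l3-/- lines with the deposited one and at 74.6% and 76.2% with the longest. Of the 62 genes, Wnt8b, Wnt9b and Dkk4 were too low to be tested in any comparison.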

How the data were processed

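RNA was sequenced from TruSeq Stranded mRNA libraries. Per the submitters' processing notes, the authors used bcl2fastq 2.17.1.14, cutadapt 1.10, STAR 2.5.3a on mm10, HTSeq 0.6.1p1 and DESeq2 1.16.1. The deposited tables hold raw read counts per gene, normalized counts, and normalized counts per kb of the median transcript length, which are a signal scaled by the authors. The annotation and the strand setting of counting are not given in the sources used here. The authors' own fold changes and p-values were not used. A gene not listed in the MEF table was taken as 0 there, since that table lists no gene without reads.

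Counts were tested with edgeR 4.0.16 (R 4.3.3): filterByExpr, TMM, quasi-likelihood test, Benjamini-Hochberg adjustment over all genes tested. SE values come from the log2 fold change and its F statistic. mESCs and MEFs were fitted separately, and WT cell types and the difference of genotype effects in 1 fit of 11 libraries. Alternatives were DESeq2 1.42.0, RLE scaling, other filters on low counts, a replicate block, a GC correction, 1 fit of all libraries and leaving out each library. The script was tested on simulated data. Named were all Wnt genes called in mESCs or MEFs, the 6 largest differences each way between WT cell types, and Wnt3, Axin2, Lef1, Lgr5, Nkd1, Notum, Ctnnb1 and Porcn, with the further pathway genes called in mESCs or MEFs. Other genes, among them Dkk1, Fzd4, Wnt1, Wnt9a, Wls, Sfrp1 and Sfrp2, were named after their values were seen. The genes and lists were chosen with earlier results of these data known. Cultures came from separate embryos. A further WT mESC dataset of the study is not analysed here. The paper excluded it after a principal component analysis, because it grouped apart from the other replicates. The WT mESC lines used here were therefore kept for their similarity. Their spread, and the SD, p-values and non-overlap that rest on it, may understate the variation among WT lines. Promoters are from RefSeq (GRCm38.p6, 40 of 62 Wnt genes). Counting intervals and limits cover counting error only. Marker lists without a value in the text are not reported here.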

Additional observations from a re-analysis of the deposited data

Results flagged for a closer look

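The genotype effect on 6 of 55 Wnt genes differed between MEFs and mESCs by the test of the difference itself, in edgeR's fit of all 11 libraries. Of all genes above the threshold 11.4% were called by this test, so the count was near the share of all genes. The log2 difference, MEFs minus mESCs, was 6.59 for Rspo1, 4.33 for Dkk1 and 3.49 for Fzd4, and -6.85 for Dkk2, -4.57 for Nkd2 and -3.34 for Rnf43. The adjusted p of Rspo1 stayed at or below 0.0253 over its 18 alternatives. Over theirs, it reached 0.156 for Dkk1, 0.142 for Fzd4, 0.103 for Dkk2, 0.121 for Nkd2 and 0.159 for Rnf43. These alternatives include leaving out each of the 11 libraries in turn.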

How the results depend on the processing

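The number of Wnt genes called depended on the fit. In mESCs, 3 fell and 0 rose. The number that fell was 5 with no filter on low counts, 7 with DESeq2 and 5 with GC correction and replicate block together. It was 1 in 1 fit of all 11 libraries and 0 to 4 when an Atxn7l3-/- line was left out. Of all genes 4.54%, 5.25%, 3.8%, 1.18% and 0.0192% to 4.66% fell in these fits, against 2.18% in the main fit. The number that rose was 1 with no filter, with DESeq2, with GC correction, and with GC correction and the block. It was 0 to 1 when an Atxn7l3-/- line was left out. Of all genes 6.42%, 7.51%, 2.78%, 4.64% and 0% to 5.08% rose in these fits, against 3.13% in the main fit. In MEFs, 8 fell and 1 rose. DESeq2 gave 18 and 2, the replicate block 15 and 2, GC correction 5 falls and 1 fit of all 11 libraries 14 falls. The share of all genes that fell was 11%, 7.33%, 2.46% and 8.4% in these fits, against 3.55% in the main fit. With DESeq2 8.14% of all genes rose and with the block 5.38%, against 4.74%. Leaving out libraries gave 0 to 8 falls, and 1 rise each time, where 0.463% to 6.08% of all genes fell and 0.803% to 6% rose. Between WT cell types, 5 genes instead of 10 were lower when each library had to hold at least 10 counts, and leaving out libraries gave 16 to 26 higher and 6 to 12 lower. For the difference of genotype effects, 6 were lower instead of 3 with no filter, 8 with DESeq2 and 6 with the replicate block. Of all genes 5.93%, 11.2% and 3.86% were lower there, against 5.28% in the main fit. Leaving out a library other than a WT mESC line gave 1 to 3 higher and 1 to 7 lower. In those fits 2.4% to 7.95% of all genes were higher and 1.89% to 8.5% lower. In mESCs same-numbered lines had correlations of 0.00777 and -0.172, with line 3 unpaired, and differently numbered ones -0.149 to 0.172. The labels do not say whether the numbers mark pairs in either cell type. With the block 4 Wnt genes fell and 0 rose in mESCs, where 2.91% of all genes fell and 4.19% rose. The shares of the leading ligands moved with the longest transcript length: Wnt7a 2.87%, Wnt9a 53.1%, Wnt5a 38.5% and 41.9%. Direction turned for Lef1 in mESCs without WT line 2 (log2 fold change 0.23, against -0.89 without WT line 1) and for Nkd1 in mESCs with GC correction and the block (-0.0035). Of the other single-gene values, 39 in MEFs, 36 of the difference of effects, 13 in mESCs and 11 between WT cell types lost the threshold in an alternative, 9 in MEFs gained it, and the others stayed on their side. The cause was not tested. With 2 or 3 libraries per group, a missed threshold does not show that a level was the same.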
